A study of Homo sapiens with 12 samples.

Results

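Expression was compared between the CWR22Rv1 line that had been targeted at HOXB13 and then given lentiviral MEIS1 (HOXB13ko-LV-MEIS1) and the Control line, over every gene that the deposited files list. The comparison took the 3 HOXB13ko-LV-MEIS1 libraries and the 3 Control libraries, 6 of the 12 libraries of the series, and all 13951 genes that remained once exact repeats of a row were dropped. CWR22Rv1 is an established human prostate carcinoma cell line, grown out of a relapsed xenograft. All groups were grown with puromycin, and RNA was taken 48 h after seeding. Control cells carried Cas9 and no guide RNA. HOXB13ko cells carried Cas9 and received a guide against HOXB13, and 6 clones were picked and mixed again into 1 pool. HOXB13ko-LV-MEIS1 cells were that pool infected with a lentivirus encoding MEIS1, and LV-MEIS1 cells were infected with the same virus without a guide; whether they also carried Cas9 was not given in the sources used here. Each group was thus 1 line or pool sampled 3 times, and its spread is that between cultures or libraries, not between independently derived lines. HOXB13ko-LV-MEIS1 and Control differed in the guide, in passage through single clones and in the virus at once, and these cannot be told apart within this comparison; the HOXB13ko and LV-MEIS1 groups are set beside it for that reason.

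HOXB13 is a homeodomain transcription factor of posterior tissues and one of the defining factors of the luminal epithelium of the prostate, where it works on chromatin together with other factors such as FOXA1. MEIS1 belongs to the TALE homeodomain factors, which bind DNA beside HOX proteins and act as their cofactors. HOX and MEIS proteins contact neighbouring half-sites, so that the loss of one partner can alter where the other binds. The series asks which effects of MEIS1 in prostate cancer cells need HOXB13.

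The guide is shown because it sets what the HOXB13 mRNA level can report. It is printed in lower case with its adjacent NGG motif, read from the genome, in capitals:
HOXB13 guide: ttgacagcaggcatcagcgtAGG
It had 1 exact match in the GRCh38 genome, on the plus strand at chr17:48728454-48728473, in exon 1 of HOXB13 (ENSG00000159184, minus strand, chr17:48724763-48728750). The expected Cas9 cut lies after 41 codons of the reading frame, within the 601 coding bases of that exon. A small insertion or deletion there leaves a transcript that still counts as HOXB13. The mRNA level thus does not test the loss of the protein, and groups are given here by their labels. The study itself reported the loss of HOXB13 protein by western blot, in the knockout cells and in each clone.

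HOXB13 was 185, 215 and 187 CPM in Control and 326, 361 and 375 CPM in HOXB13ko-LV-MEIS1, so every HOXB13ko-LV-MEIS1 library lay above every Control library. The log2 fold change was 0.86 ± 0.07 (SE of the fitted contrast, here and below, with n = 3 per group), in the direction opposite to a loss of mRNA. It passed the test narrowly (adjusted p = 0.0408, limma treat). The call was lost in 8 of the 12 fits that left out 1 library, with adjusted p up to 0.217. HOXB13 was 327 ± 20.1 CPM (SD) in HOXB13ko, and the difference of HOXB13ko-LV-MEIS1 from it was 0.12 (95% interval -0.029 to 0.26) on the log2 scale. MEIS1 (chr2:66433452-66573869, plus strand) was 4.24, 4.45 and 4.05 CPM in Control and 30.1, 29.8 and 29.3 CPM in HOXB13ko-LV-MEIS1, and it rose by 2.67 ± 0.07 on the log2 scale (adjusted p = 1.38e-10, limma treat). The virus label of these libraries thus matched their MEIS1 level, which was 3.56 ± 0.118 CPM in HOXB13ko and 47.4 ± 1.96 CPM in LV-MEIS1.

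Library totals and cell markers were examined before the genes. The listed values summed to between 957424 and 992328 CPM in the 6 libraries compared, and 1 to 7 genes were at 0 in each. Across genes, log2 values of HOXB13ko-LV-MEIS1 libraries correlated with each other at 0.9934 to 0.9935, with HOXB13ko at 0.9895 to 0.9939, with Control at 0.9776 to 0.9827 and with LV-MEIS1 at 0.9586 to 0.9641. All 11 markers of luminal prostate epithelium were listed, with summed levels of 3386 to 3546 CPM in Control and 3582 to 3760.1 CPM in HOXB13ko-LV-MEIS1, whereas none of 7 basal markers was listed. Of the markers of other cell types, 4 of 10 for fibroblast and smooth muscle, 1 of 7 for endothelium, 1 of 9 for leukocytes and 1 of 8 for erythroid cells were listed. The defining COL1A2, PECAM1, PTPRC and HBB were among those not listed. Fibroblast and smooth muscle markers summed to 31.6 to 34.7 CPM in Control and 32.7 to 41.3 CPM in HOXB13ko-LV-MEIS1, and the endothelial ENG to 4.21 to 5.83 and 3.79 to 4.33 CPM. The 3 of 6 neuroendocrine markers listed summed to 50.1 to 51.4 CPM in Control and 12.7 to 15.1 CPM in HOXB13ko-LV-MEIS1. In bulk RNA, fewer cells of a type and less RNA per cell cannot be told apart.

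Of 13951 genes, 220 changed by more than 1.5-fold at an adjusted p under 0.05 (1.58% of the genes tested), 101 higher (0.724%) and 119 lower (0.853%) in HOXB13ko-LV-MEIS1. Without adjustment, 464 genes had a treat p under 0.05, and limma's eBayes test, which asks only whether a change differs from 0, called 5182 genes (37.1%). The groups did not overlap for 46.1% of all genes. All 220 called genes had groups without overlap, the smallest change among them was 0.82 on the log2 scale, 39 changed by more than 2 (17 higher and 22 lower) and 153 by between 1 and 2. The median change of all genes was -0.013. Most of the called genes were of moderate abundance, with a mean of at least 100 CPM for 18 and under 1 CPM for 4.

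**Figure D1:**
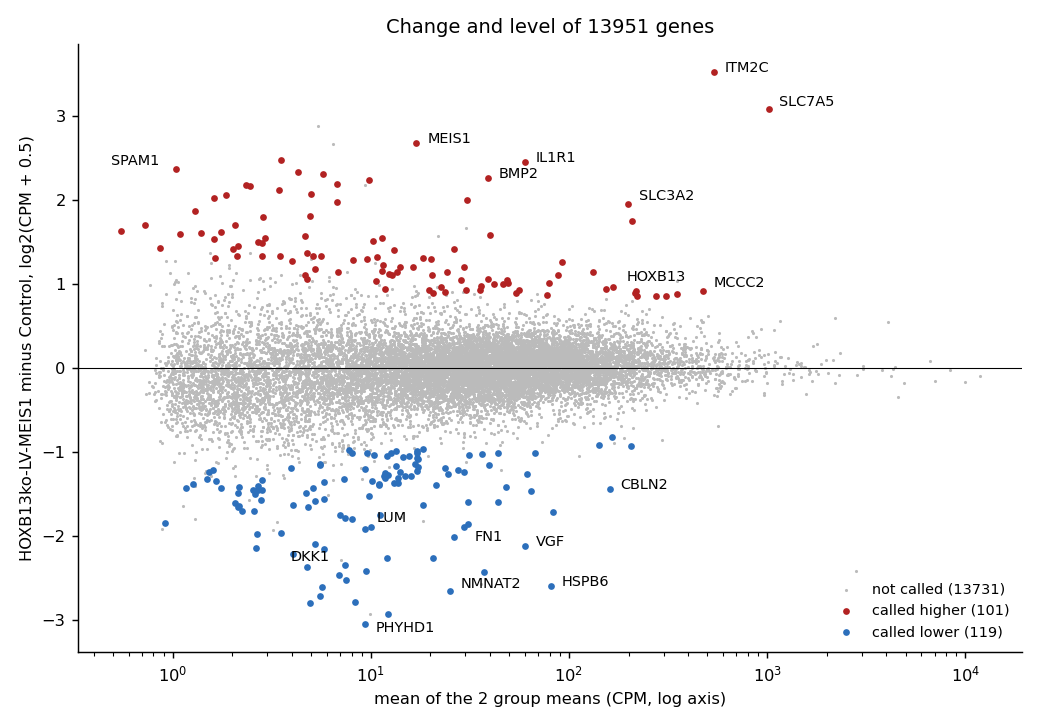
Each point is 1 of 13951 genes, with the mean of the 2 group means in CPM on a log axis and the difference HOXB13ko-LV-MEIS1 minus Control on the log2(CPM + 0.5) scale. The 101 genes called higher are red and the 119 called lower are blue, and ITM2C and SLC7A5 stand apart at the upper right, with both a high level and a large increase.

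Genes for nutrient transport, ion and gap-junction channels and secreted or surface signals were among the 10 largest increases. ITM2C, a transmembrane protein of the BRICHOS family, was 84.1, 92.6 and 81.3 CPM in Control and 929.9, 1017 and 1033 CPM in HOXB13ko-LV-MEIS1, an 11.5-fold difference of the means and a log2 fold change of 3.52 ± 0.06 (adjusted p = 2.56e-13, limma treat). SLC7A5, the light chain of the large neutral amino acid transporter LAT1, was 211, 236 and 199 CPM in Control and 1706, 1771 and 1979 CPM in HOXB13ko-LV-MEIS1, with a log2 fold change of 3.08 ± 0.08 (adjusted p = 5.24e-11). Both genes were higher in all 3 libraries by a margin many times the spread within either group. IL1R1, the signalling receptor for interleukin-1, was 19.4, 16.3 and 19.1 CPM in Control and 97.0, 109 and 99.7 CPM in HOXB13ko-LV-MEIS1, which is 2.45 ± 0.09 on the log2 scale (adjusted p = 4.67e-09). BMP2, a secreted ligand of the BMP family, was 13.3, 14.1 and 12.1 CPM in Control and 64.9, 62.2 and 67.1 CPM in HOXB13ko-LV-MEIS1 and rose by 2.26 ± 0.07 (adjusted p = 1.11e-09). The group ranges of both were far apart.

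The other large increases started from low levels. SPAM1, a hyaluronidase of sperm, was listed at 0 in all 3 Control libraries and had 2.05, 1.93 and 2.27 CPM in HOXB13ko-LV-MEIS1 (adjusted p = 7.74e-06, limma treat), so no fold is given. ANO1, a calcium-activated chloride channel, was 0.552, 0.908 and 0.712 CPM in Control and 5.30, 6.85 and 6.71 CPM in HOXB13ko-LV-MEIS1 (2.47 ± 0.17, adjusted p = 4.69e-06). GJB1, the gap-junction protein connexin of myelinating and secretory cells, was 1.51, 1.86 and 1.43 CPM in Control and 9.38, 9.43 and 10.8 CPM in HOXB13ko-LV-MEIS1 (2.31 ± 0.18, adjusted p = 1.33e-05). In each of these genes the lowest HOXB13ko-LV-MEIS1 library lay above the highest Control library. CYP4F22, a fatty acid hydroxylase of the epidermis, was 0.581, 1.6 and 1.20 CPM in Control and 5.88, 7.87 and 8.53 CPM in HOXB13ko-LV-MEIS1 (2.32 ± 0.21, adjusted p = 9.75e-05), with a wider spread in both groups than GJB1. SEMA6D, a transmembrane semaphorin, was 3.09, 3.08 and 3.17 CPM in Control and 15.3, 17.1 and 17.4 CPM in HOXB13ko-LV-MEIS1 (2.24 ± 0.15, adjusted p = 2.93e-06). In both of these the groups were apart as well, and in ANO1, CYP4F22 and GJB1 the Control libraries were near or below 2 CPM.

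The 10 largest decreases included NMNAT2, CHRNB2, PHF21B, ATCAY and SEZ6, together with a chaperone and a chromatin remodeler. PHYHD1, a dioxygenase of unclear substrate, was 16.2, 18 and 16.9 CPM in Control and 1.75, 1.61 and 1.49 CPM in HOXB13ko-LV-MEIS1, a log2 fold change of -3.05 ± 0.17 (adjusted p = 1.79e-07, limma treat). HSPB6, a small heat shock protein, was 122, 147 and 150.4 CPM in Control and 18.1, 25.0 and 25.3 CPM in HOXB13ko-LV-MEIS1 (-2.60 ± 0.12, adjusted p = 6.70e-08), the most abundant of the 10 genes with the largest decreases. NMNAT2, which makes NAD in axons, was 44.3, 45.0 and 41.1 CPM in Control and 6.71, 5.42 and 7.41 CPM in HOXB13ko-LV-MEIS1 (-2.66 ± 0.16, adjusted p = 4.87e-07). Control means were 10.5-fold, 6.12-fold and 6.68-fold those of HOXB13ko-LV-MEIS1 in PHYHD1, HSPB6 and NMNAT2. In all 3 genes every library of one group lay far from every library of the other. SMARCA1, an ATPase of the ISWI chromatin remodelers, was 8.78, 8.13 and 9.99 CPM in Control and 1.25, 0.682 and 0.718 CPM in HOXB13ko-LV-MEIS1 (-2.79 ± 0.18, adjusted p = 1.46e-06). CHRNB2, a subunit of nicotinic acetylcholine receptors, was 12.9, 11.8 and 11.6 CPM in Control and 1.18, 2.13 and 2.15 CPM in HOXB13ko-LV-MEIS1 (-2.47 ± 0.22, adjusted p = 4.73e-05). PHF21B, ATCAY and SEZ6 fell by 2.71, 2.61 and 2.52 on the log2 scale from Control means of 10.0, 10.1 and 13.1 CPM, and SEZ6 overlaps PIPOX on the opposite strand. TARP, a prostate transcript of the T cell receptor gamma locus, was 19.2, 22.4 and 23.8 CPM in Control and 1.66, 2.41 and 3.44 CPM in HOXB13ko-LV-MEIS1 (-2.93 ± 0.17, adjusted p = 4.00e-07), and HBA2, an alpha-globin gene, was 13.3, 14.01 and 17.5 CPM in Control and 1.06, 2.17 and 2.11 CPM in HOXB13ko-LV-MEIS1 (-2.79 ± 0.22, adjusted p = 1.27e-05). Both share sequence with neighbouring copies, TARP with the constant genes of the receptor locus and HBA2 with HBA1, so reads could have been divided between them.

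Promoters of the genes with the largest changes were searched for the core of the MEIS site, TGACAG, and for CAATAAA, a core of the HOXB13 site, on both strands of the window from 250 bases before to 50 bases after the start in the RefSeq table (GRCh38.p14). The letters of a match are a description and not a binding site. TGACAG was present in 14.6% of the 82 promoters of genes called higher and 22.8% of the 92 of genes called lower, beside 13.2% of the 10992 promoters of listed genes and 15.9% of all promoters in the table. CAATAAA was present in 6.1%, 1.09%, 2.14% and 4.12% of the same sets. The table held 14 of the 20 genes named above, and those with a match are shown, 3 with TGACAG and 1 with CAATAAA, with every match in capitals and each promoter written 5′ to 3′ on the strand of its gene:
GJB1, chrX:71214989-71215288, plus strand: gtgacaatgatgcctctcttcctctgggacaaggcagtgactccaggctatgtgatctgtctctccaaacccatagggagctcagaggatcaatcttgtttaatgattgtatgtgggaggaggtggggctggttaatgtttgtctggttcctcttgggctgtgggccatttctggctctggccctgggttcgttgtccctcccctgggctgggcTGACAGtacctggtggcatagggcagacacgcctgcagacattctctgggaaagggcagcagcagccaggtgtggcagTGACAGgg
PHYHD1, chr9:128920732-128921031, plus strand: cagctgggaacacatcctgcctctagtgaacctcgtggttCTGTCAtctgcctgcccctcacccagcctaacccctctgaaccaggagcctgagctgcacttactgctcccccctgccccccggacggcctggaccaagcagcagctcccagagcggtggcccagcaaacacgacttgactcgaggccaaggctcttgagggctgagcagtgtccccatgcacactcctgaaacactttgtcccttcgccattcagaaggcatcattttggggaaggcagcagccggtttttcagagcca
HSPB6, chr19:35756980-35757279, minus strand: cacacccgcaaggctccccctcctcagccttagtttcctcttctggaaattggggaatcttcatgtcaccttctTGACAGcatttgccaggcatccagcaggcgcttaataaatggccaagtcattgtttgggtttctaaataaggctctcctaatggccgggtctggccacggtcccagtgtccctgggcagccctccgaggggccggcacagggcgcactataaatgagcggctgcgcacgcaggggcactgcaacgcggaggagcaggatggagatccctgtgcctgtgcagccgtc
SPAM1, chr7:123924991-123925290, plus strand: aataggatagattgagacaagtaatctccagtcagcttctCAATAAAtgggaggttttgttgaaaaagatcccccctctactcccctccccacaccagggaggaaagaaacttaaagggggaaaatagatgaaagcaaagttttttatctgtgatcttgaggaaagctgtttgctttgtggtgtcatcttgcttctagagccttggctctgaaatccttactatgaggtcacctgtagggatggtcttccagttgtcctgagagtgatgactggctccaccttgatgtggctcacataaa
GJB1, with 2 matches, and SPAM1 were called higher, and PHYHD1 and HSPB6 were called lower.

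By the size of the difference in CPM, SLC7A5 and ITM2C again led, followed by MCCC2, SLC3A2 and MYCBP2. MCCC2, a subunit of the carboxylase that breaks down leucine, was 326, 329.8 and 330.2 CPM in Control and 602, 636 and 628 CPM in HOXB13ko-LV-MEIS1, a modest but very even change of 0.92 ± 0.04 on the log2 scale (adjusted p = 1.09e-04, limma treat). SLC3A2, the heavy chain that pairs with SLC7A5, was 78.8, 87.3 and 78.7 CPM in Control and 308, 293 and 350.4 CPM in HOXB13ko-LV-MEIS1 (1.95 ± 0.07, adjusted p = 5.34e-09). MYCBP2, a large ubiquitin ligase, was 102, 88.5 and 95.3 CPM in Control and 346, 317 and 297 CPM in HOXB13ko-LV-MEIS1 (1.74 ± 0.12, adjusted p = 1.30e-05), and it overlaps MYCBP2-AS1 on the opposite strand. The largest losses in CPM were CBLN2, USP54, HSPB6, OCRL and NEDD4L. CBLN2, a secreted organiser of synapses, was 238, 236 and 231 CPM in Control and 85.3, 87.6 and 85.5 CPM in HOXB13ko-LV-MEIS1 (-1.44 ± 0.05, adjusted p = 1.96e-08), and NEDD4L, a ubiquitin ligase of membrane proteins, was 133, 124 and 126 CPM in Control and 38.1, 38.9 and 38.3 CPM in HOXB13ko-LV-MEIS1 (-1.72 ± 0.06, adjusted p = 9.97e-09). USP54, which overlaps PPP3CB-AS1 on the opposite strand, fell by 0.92 on the log2 scale from 270.0 CPM. OCRL, a phosphoinositide phosphatase, fell by 0.82 from 210.5 CPM (adjusted p = 0.0198), a call lost in 4 of the 12 fits without 1 library (adjusted p up to 0.0867). Large differences without replicate agreement were not called: LPAR4, named after its values were seen, was 4762, 22.1 and 6697 CPM in Control and 5.30, 5304 and 154 CPM in HOXB13ko-LV-MEIS1, with overlapping groups and the eBayes adjusted p at 0.377.

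Amino acid supply was examined through 3 lists of genes, namely amino acid transporters, targets of the ATF4 stress response with serine synthesis, and cytosolic tRNA synthetases. Of 25 transporters listed, 2 rose, SLC7A5 and its partner SLC3A2, and none fell (8% called, beside 1.58% of all genes). The median of the list was 0.25 beside -0.013 for all genes. No member of the other 2 lists was called. The ATF4 list had a median of 0.17 over 26 genes, or 0.30 with the GC trend removed, 13 higher and 0 lower by eBayes (background 18.3% and 18.9%), among them CHAC1 at 0.75 ± 0.22 and GDF15 at 0.68 ± 0.11 on the log2 scale, whereas TRIB3 (386 ± 36.7 CPM in Control, 386 ± 31.9 CPM in HOXB13ko-LV-MEIS1) and SHMT2 (297 ± 26.9 and 270.5 ± 12.6 CPM) differed by 0.00086 ± 0.08 and -0.13 ± 0.07. tRNA synthetases had a median of 0.15 over 20 genes, with IARS at 0.41 ± 0.05 and EPRS at 0.21 ± 0.05. They ranged from -0.57 to 0.41, with 15 positive and 5 negative, and eBayes gave 9 higher and 2 lower.

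Neuroendocrine and secretory granule genes held the largest share of calls of any list, 6 lower and 1 higher of 17 listed (all genes 0.853% lower and 0.724% higher), with a median of -0.20. CHGB, a granin packed into dense-core granules, was 6.29, 6.93 and 7.58 CPM in Control and 0.694, 1.36 and 1.31 CPM in HOXB13ko-LV-MEIS1 (-2.22 ± 0.18, adjusted p = 3.75e-05, limma treat). VGF, a precursor of secreted neuropeptides, was 90.8, 107 and 94.8 CPM in Control and 19.1, 24.6 and 22.9 CPM in HOXB13ko-LV-MEIS1 (-2.12 ± 0.12, adjusted p = 1.12e-06). SCG3 and SNAP25, a granin and a subunit of the membrane fusion complex, fell by 2.15 and 2.14 on the log2 scale, from Control means of 9.82 and 4.64 CPM. The vesicle protein SYP and the neuronal splicing factor SRRM4 fell by 1.89 and 1.63. SOX2, a progenitor transcription factor, was the member called higher, from 1.40 ± 0.372 to 4.24 ± 0.312 CPM (1.33 ± 0.15, adjusted p = 0.00874). The list did not move as 1: 6 of 17 members had a positive difference, and eBayes gave 3 higher and 8 lower (background 18.3% and 18.9%). SYT4 went from 145 ± 9.23 to 244 ± 4.82 CPM (0.75 ± 0.06), short of a call (adjusted p = 0.204) but higher by eBayes (adjusted p = 2.14e-07). The summed level of the neuroendocrine markers moved with this list, CHGB, SYP and SRRM4 being members of both, and the defining CHGA and INSM1 were not listed. Whether a share of cells or a level per cell moved was not tested. Among 24 neurotransmitter receptors, 2 fell (8.33% called, beside 1.58% of all genes). They were CHRNB2 and the NMDA receptor subunit GRIN1 (90.3 ± 3.77 to 44.7 ± 3.65 CPM, -1.01 ± 0.07, adjusted p = 0.00254). The call of GRIN1 was lost once the trend with GC content was removed (-0.68, adjusted p = 1).

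The matrix genes were examined in lists of proteoglycans, of collagens, laminins and fibronectin, and of integrins. Proteoglycan core proteins, the group on which the study centred with these same libraries and thus no independent set, had 1 gene higher and 2 lower of 22 listed (13.6% called, beside 1.58% of all genes) and a median of -0.24, or -0.076 with the GC trend removed. LUM, which encodes the collagen-binding proteoglycan lumican (chr12:91102629-91111494, minus strand), was 16.4, 14.4 and 14.7 CPM in Control and 3.53, 3.77 and 3.59 CPM in HOXB13ko-LV-MEIS1, a log2 fold change of -1.92 ± 0.11 (adjusted p = 1.29e-06, limma treat). DCN, its neighbour, which encodes decorin (chr12:91140484-91183217, minus strand), was 2.46, 2.99 and 1.83 CPM in Control and 0.930, 1.22 and 0.873 CPM in HOXB13ko-LV-MEIS1. The difference of -0.94 ± 0.15 did not pass (adjusted p = 0.649; eBayes adjusted p = 3.16e-04), although the groups did not overlap. TGFBR3, which encodes betaglycan, was 3.97, 3.98 and 4.76 CPM in Control and 3.40, 3.21 and 3.16 CPM in HOXB13ko-LV-MEIS1 (-0.33 ± 0.12, adjusted p = 1). SPOCK2, a testican, fell from 3.38 ± 0.436 to 0.876 ± 0.0730 CPM (-1.49 ± 0.21, adjusted p = 0.0221), and the glypican GPC3 rose from 2.93 ± 0.241 to 6.61 ± 0.408 CPM (1.05 ± 0.11, adjusted p = 0.0305), and each call was lost in 5 of the 12 fits without 1 library (adjusted p up to 0.109 and 0.154). The call of SPOCK2 was also lost with the GC trend removed (-1.32, adjusted p = 0.108). Of 23 collagens, laminins and fibronectin, 2 fell and none rose (8.7% called), with a median of -0.37. Fibronectin, FN1, was 48.9, 46.1 and 45.1 CPM in Control and 11.7, 13.7 and 11.3 CPM in HOXB13ko-LV-MEIS1 (-1.89 ± 0.08, adjusted p = 1.19e-07), and the fibrillar collagen COL5A2 was 48.4, 47.5 and 45.0 CPM in Control and 14.8, 17.2 and 13.8 CPM in HOXB13ko-LV-MEIS1 (-1.59 ± 0.08, adjusted p = 1.24e-06). No integrin subunit of 17 was called, with ITGB1 at 234, 212 and 218 CPM in Control and 262, 270.4 and 266 CPM in HOXB13ko-LV-MEIS1 (0.27 ± 0.05, adjusted p = 1) and ITGB5 at 119 ± 10.8 and 79.9 ± 6.25 CPM (-0.57 ± 0.07, adjusted p = 1). Of 17 epithelial-mesenchymal genes, 1 rose and 1 fell (11.8% called, beside 1.58% of all genes). N-cadherin, CDH2, rose from 5.96 ± 0.381 to 15.6 ± 0.979 CPM (1.32 ± 0.10, adjusted p = 2.09e-04). The epithelial factor OVOL1 fell from 3.93 ± 0.884 to 1.13 ± 0.406 CPM (-1.45 ± 0.21, adjusted p = 0.0337). The OVOL1 call was lost in 5 of 12 such fits (adjusted p up to 0.188) and with the GC trend removed (-1.28, adjusted p = 0.145).

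Androgen-related genes were called in single cases, 2 of 27 androgen-responsive genes (7.41%) and 1 of 16 enzymes of androgen synthesis and glucuronidation (6.25%), beside 1.58% of all genes. Among the androgen-responsive genes, NDRG1 rose, with 50.2, 56.4 and 54.5 CPM in Control and 113, 139.6 and 136 CPM in HOXB13ko-LV-MEIS1 (1.26 ± 0.08, adjusted p = 5.84e-05, limma treat), and TARP fell, as given above. The kallikrein KLK3, which encodes PSA, was 182 ± 11.1 and 121 ± 14.7 CPM and TMPRSS2 was 42.9 ± 3.32 and 63.4 ± 8.28 CPM, with differences of -0.59 ± 0.07 and 0.55 ± 0.08 that did not pass (both adjusted p = 1) and opposite signs. AKR1C3, which makes active androgens from weak precursors, was 18.9, 21.3 and 19.1 CPM in Control and 59.7, 56.1 and 65.4 CPM in HOXB13ko-LV-MEIS1 (1.59 ± 0.07, adjusted p = 2.78e-07), the call among the enzymes. Among 27 HOX genes, HOXB13 was called higher and HOXA13 lower (7.41% called, the targeted HOXB13 included). HOXA13 was 24.1, 22.5 and 23.8 CPM in Control and 10.7, 11.6 and 10.4 CPM in HOXB13ko-LV-MEIS1 (-1.07 ± 0.09, adjusted p = 0.00273). Among 11 TALE factors, the added MEIS1 was called higher and MEIS3 lower (18.2% called). That share counts MEIS1, whose rise was set by the virus, and is thus no result about the list. MEIS3 went from 2.44 ± 0.184 to 0.766 ± 0.0692 CPM (-1.21 ± 0.16, adjusted p = 0.0438). The call of MEIS3 was lost in 10 of the 12 fits without 1 library (adjusted p up to 0.17) and with the GC trend removed (-0.98, adjusted p = 0.763).

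Of the signalling lists, 6.06% of TGF-beta, BMP and activin genes, 8.11% of Wnt genes and 8.62% of axon guidance genes were called, beside 1.58% of all genes. Of 33 genes of TGF-beta, BMP and activin signalling, BMP2 and the activin subunit INHBB (28.8, 35.02 and 28.5 CPM in Control and 59.4, 62.4 and 63.6 CPM in HOXB13ko-LV-MEIS1; 1.00 ± 0.07, adjusted p = 0.00291, limma treat) rose and none fell. Of 37 Wnt genes, the secreted inhibitor DKK1 fell, with 13.1, 13.3 and 11.6 CPM in Control and 2.51, 1.81 and 1.99 CPM in HOXB13ko-LV-MEIS1 (-2.34 ± 0.12, adjusted p = 1.83e-07), as did the nuclear effector LEF1 (23.1 ± 0.290 to 10.2 ± 1.06 CPM, -1.15 ± 0.09, adjusted p = 0.00102), and the receptor FZD4 rose (12.7 ± 0.3804 to 27.9 ± 2.02 CPM, 1.11 ± 0.08, adjusted p = 6.55e-04). LEF1 overlaps LEF1-AS1 and FZD4 overlaps PRSS23, each on the opposite strand. The median of the Wnt list was -0.014. Among 58 axon guidance ligands and receptors, 2 rose and 3 fell. SEMA6D and UNC5C (1.14 ± 0.11, adjusted p = 0.00539) rose, and the receptors EPHA4 (-1.80 ± 0.16, adjusted p = 2.10e-04) and PLXNA2 (-1.16 ± 0.08, adjusted p = 3.09e-04) and the ligand SEMA3C (-1.21 ± 0.09, adjusted p = 4.72e-04) fell. None of 9 genes of the EGFR family and its ligands was called, with ERBB3 at 0.094 ± 0.04 and EGFR at 0.39 ± 0.08.

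None of 54 G2/M genes was called as changed by more than 1.5-fold. Their median was 0.32, and 38 were higher and 1 lower by eBayes (background 18.3% and 18.9%). The mitotic kinase TTK and the cytokinesis factor ECT2 were at the upper end, at 0.67 ± 0.05 and 0.70 ± 0.06 on the log2 scale, whereas the most abundant members, CBX5 and TUBB4B, were at 0.11 ± 0.07 and -0.023 ± 0.07. With the trend with GC content removed, the median of this list was 0.27. The 42 S phase genes had a median of -0.037, with MCM2 at -0.19 ± 0.06 and MCM4 at -0.028 ± 0.05, and none was called. Among 24 p53 targets none was called, and MDM2 and CCNG1 were at 0.32 ± 0.07 and 0.55 ± 0.05. Of 32 cholesterol and fatty acid synthesis genes, 1 was called (3.13%, beside 1.58% of all genes). It was INSIG1, which holds the sterol sensor in the endoplasmic reticulum. INSIG1 rose, with 218, 228 and 214 CPM in Control and 394, 401 and 402 CPM in HOXB13ko-LV-MEIS1 (0.86 ± 0.04, adjusted p = 0.00146, limma treat). The median of that list was 0.26, and 19 members were higher and 1 lower by eBayes. Among 35 interferon response and antigen presentation genes, 1 was called (2.86%, beside 1.58% of all genes). It was IFI44L, which fell from 13.2 ± 0.847 to 5.45 ± 0.628 CPM (-1.20 ± 0.10, adjusted p = 0.00124). The median of these genes was -0.18, or -0.12 with the GC trend removed. By eBayes, 2 of them were higher and 12 lower (background 18.3% and 18.9%).

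**Figure D2:**
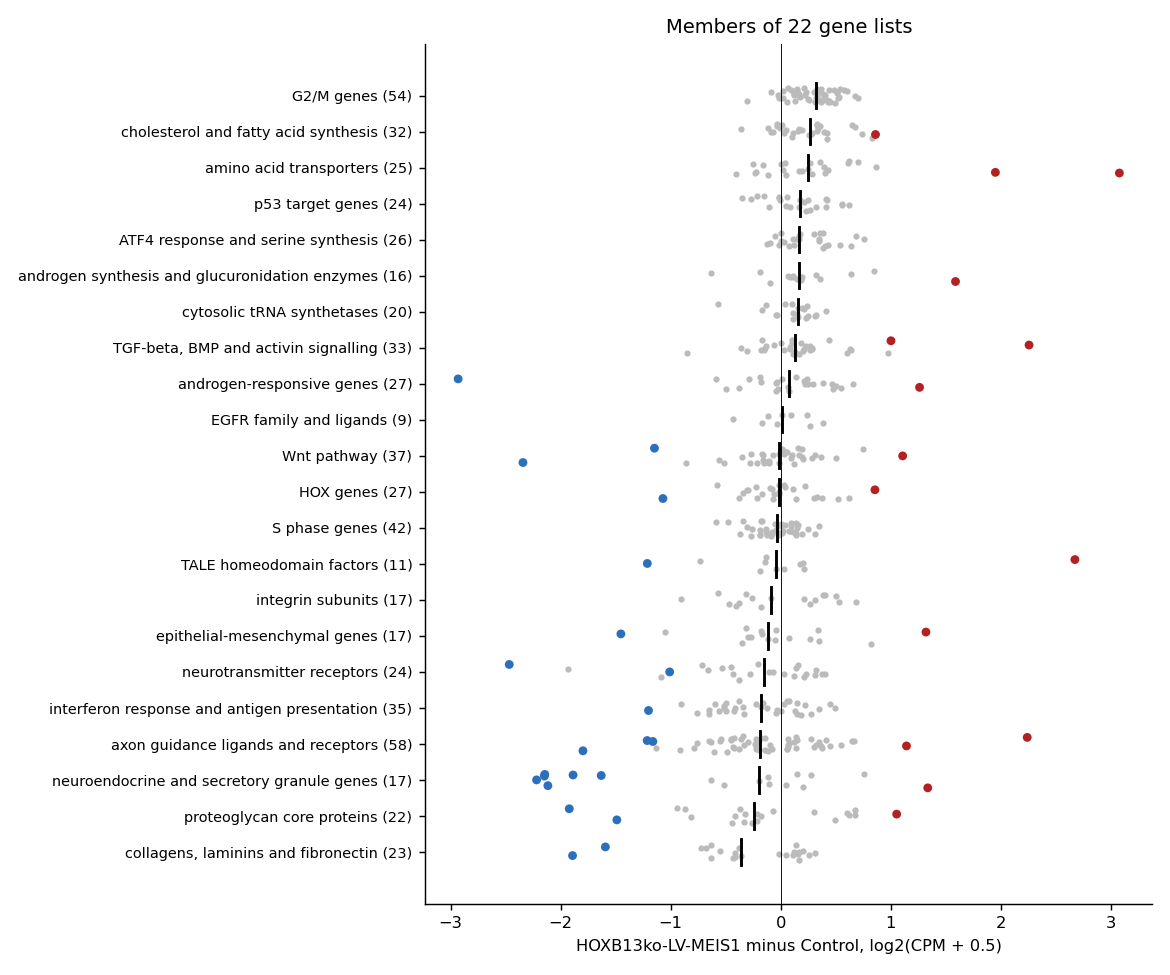
Each point is 1 gene of 1 of 22 lists, with the number of listed members in brackets, placed by its difference HOXB13ko-LV-MEIS1 minus Control on the log2(CPM + 0.5) scale. Red and blue points were called higher and lower, grey points were not called, and black bars are medians, which run from -0.37 for collagens, laminins and fibronectin to 0.32 for G2/M genes.

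To see how these differences stood in lines given the guide and cloned, or given the virus, but not both, the same genes were set beside the HOXB13ko and LV-MEIS1 groups. Because HOXB13ko and LV-MEIS1 were compared with the same Control libraries, and the 220 genes were chosen by HOXB13ko-LV-MEIS1, the values are given side by side and not tested for likeness. The 101 genes called higher had a median log2 difference from Control of 1.31 in HOXB13ko-LV-MEIS1, 1.19 in HOXB13ko and 0.0074 in LV-MEIS1. The 119 genes called lower had medians of -1.42, -1.32 and -0.25. HOXB13ko-LV-MEIS1 differed from HOXB13ko by a median of 0.10 and -0.11 in the same sets.

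Against HOXB13ko directly, 1 gene of 13951 was called (0.00717%), and it was MEIS1, at 2.90 ± 0.07 (adjusted p = 9.58e-11, limma treat). Without adjustment 9 genes had a treat p under 0.05, and eBayes called 7 genes (0.0502%), 3 higher (0.0215%) and 4 lower (0.0287%). Named because they were so few, and after their values were seen, the others were SYT4, a vesicle calcium sensor (0.34 ± 0.06), and TMX4, a thioredoxin-related protein of the endoplasmic reticulum (0.37 ± 0.05), which were higher, and C1QTNF3-AMACR, AFAP1-AS1 (-1.17 ± 0.19), TENM2 (-0.77 ± 0.11) and ALB (-0.72 ± 0.07), which were lower. TENM2, a teneurin of synapses, was 20.1, 20.02 and 20.4 CPM in Control, 7.80, 6.80 and 6.06 CPM in HOXB13ko and 3.87, 3.85 and 3.75 CPM in HOXB13ko-LV-MEIS1, a stepwise lower level without overlap between any of the 3 groups. C1QTNF3-AMACR is a read-through transcript over AMACR and C1QTNF3, and its reads cannot be told from theirs with certainty. It was at or near 0 in the lower group, so no fold is given, with 2.99, 0.617 and 1.58 CPM in Control, 4.98, 1.91 and 2.64 CPM in HOXB13ko and 0.105, 0 and 0 CPM in HOXB13ko-LV-MEIS1. Without Control replicate 1 or without Control replicate 2, treat called 2 genes, MEIS1 and C1QTNF3-AMACR. The 95% interval of the difference from HOXB13ko lay within 1.5-fold in either direction for 176 (80.0%) of the 220 genes called against Control. Of all genes, 88.1% had such an interval.

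Single genes show the same comparison. SLC7A5 differed from HOXB13ko by 0.075 (95% interval -0.10 to 0.25) and SEMA6D by -0.0049 (95% interval -0.32 to 0.31), and LUM, at 3.62 ± 0.530 CPM in HOXB13ko and 3.63 ± 0.127 CPM in HOXB13ko-LV-MEIS1, by 0.010 (95% interval -0.22 to 0.24). For these genes the interval lay within 1.5-fold either way. Intervals of ITM2C, 0.23 (95% interval 0.10 to 0.36), BMP2, 0.41 (95% interval 0.26 to 0.56), and FN1, -0.39 (95% interval -0.57 to -0.21), did not include 0, in each case in the direction away from Control, but none was called by treat or by eBayes. DCN, near 1 CPM in both groups, differed by 0.021 (95% interval -0.31 to 0.35). HOXA13 and MYCBP2 differed by -0.25 (95% interval -0.44 to -0.071) and -0.36 (95% interval -0.61 to -0.11), the latter towards Control.

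**Figure D3:**
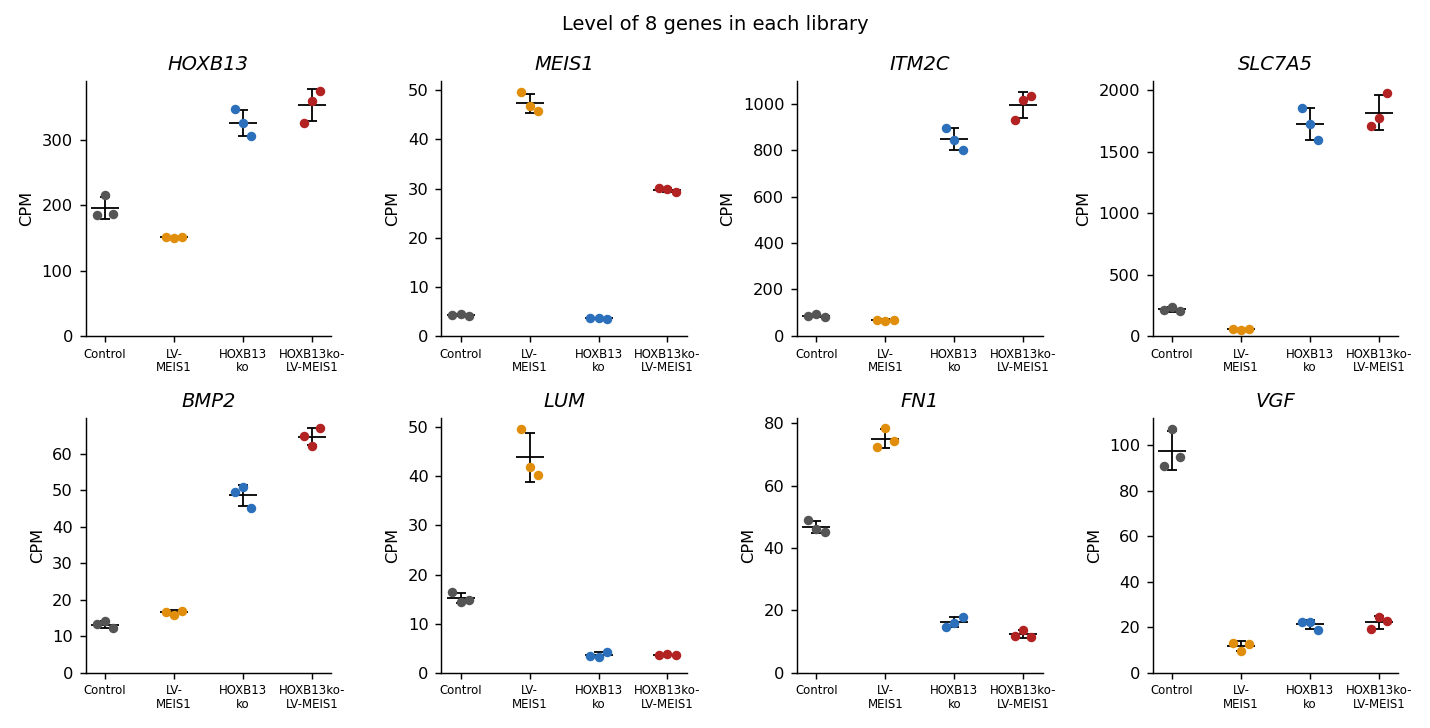
Points are the CPM of 8 genes in each of the 12 libraries, 3 per group, with black bars for the mean and its SD. ITM2C, SLC7A5 and HOXB13 are high, and LUM and FN1 low, in both groups labelled HOXB13ko. MEIS1 is high in both groups with the virus, and VGF is below Control in the other 3 groups, lowest in LV-MEIS1 with a mean of 11.7 CPM.

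Against LV-MEIS1, the group with the same virus and no guide, 936 genes were called (6.71%), 459 higher (3.29%) and 477 lower (3.42%), and eBayes called 6993 (50.1%). MEIS1 itself was lower by 0.66 ± 0.07 in HOXB13ko-LV-MEIS1, short of the 1.5-fold test (adjusted p = 1; eBayes adjusted p = 4.35e-06), and the part of this unequal dose in the comparison was not tested. The 3 largest increases were SLC7A5 (52.8 ± 4.64 CPM in LV-MEIS1, 5.10 ± 0.08), IL1R1 (2.84 ± 0.351 CPM, 4.94 ± 0.09) and the membrane estrogen receptor GPER1 (3.67 ± 0.165 CPM, 3.97 ± 0.07). GPER1 was 75.7 ± 5.98 CPM in Control and 65.0 ± 3.78 CPM in HOXB13ko-LV-MEIS1 and was not called between those 2 groups. It overlaps C7orf50 on the opposite strand. The 3 largest decreases were TARP (61.7 ± 4.39 CPM in LV-MEIS1, -4.41 ± 0.17), the GABA receptor subunit GABBR1 (29.0 ± 3.66 CPM, -4.33 ± 0.40) and DCN (27.6 ± 1.00 CPM, -4.23 ± 0.15). GABBR1 varied within HOXB13ko-LV-MEIS1, at 1.08, 2.58 and 0.141 CPM, and its difference from Control (-1.93 ± 0.40, adjusted p = 0.124, limma treat) was called only without HOXB13ko-LV-MEIS1 replicate 2 (adjusted p = 0.00486) among the fits that left out 1 library.

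Of the 220 genes called against Control, 150 (68.2%) were also called against LV-MEIS1, beside 6.71% of all genes. The 2 comparisons share the HOXB13ko-LV-MEIS1 libraries, so genes picked by one are more likely to be called in the other. Of the 150 genes, 69 were higher than both groups and 66 lower than both. A further 13 were lower than Control but higher than LV-MEIS1, and 2 were the reverse. NMNAT2 belongs to the 13 genes with the intermediate level, at 43.5 ± 2.07 CPM in Control, 6.51 ± 1.01 CPM in HOXB13ko-LV-MEIS1 and 0.935 ± 0.356 CPM in LV-MEIS1, as do CHRNB2, SEZ6, PHF21B and SCG3. LUM, FN1 and HSPB6 were instead highest in LV-MEIS1, at 43.9 ± 5.04, 75.0 ± 3.03 and 209 ± 19.9 CPM, and lowest in HOXB13ko-LV-MEIS1 or level with HOXB13ko. CDH2 was 15.4 ± 0.955 CPM in LV-MEIS1 and 12.9 ± 1.48 CPM in HOXB13ko, and HOXB13ko-LV-MEIS1 differed from LV-MEIS1 by 0.019 (95% interval -0.19 to 0.23). AKR1C3 was 50.1 ± 3.21 CPM in LV-MEIS1 and 51.0 ± 1.29 CPM in HOXB13ko, and HOXB13ko-LV-MEIS1 was higher than LV-MEIS1 by 0.27 (95% interval 0.11 to 0.42) and than HOXB13ko by 0.24 (95% interval 0.087 to 0.39), of which eBayes called the first (adjusted p = 0.00618) and not the second (adjusted p = 0.171).

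**Figure D4:**
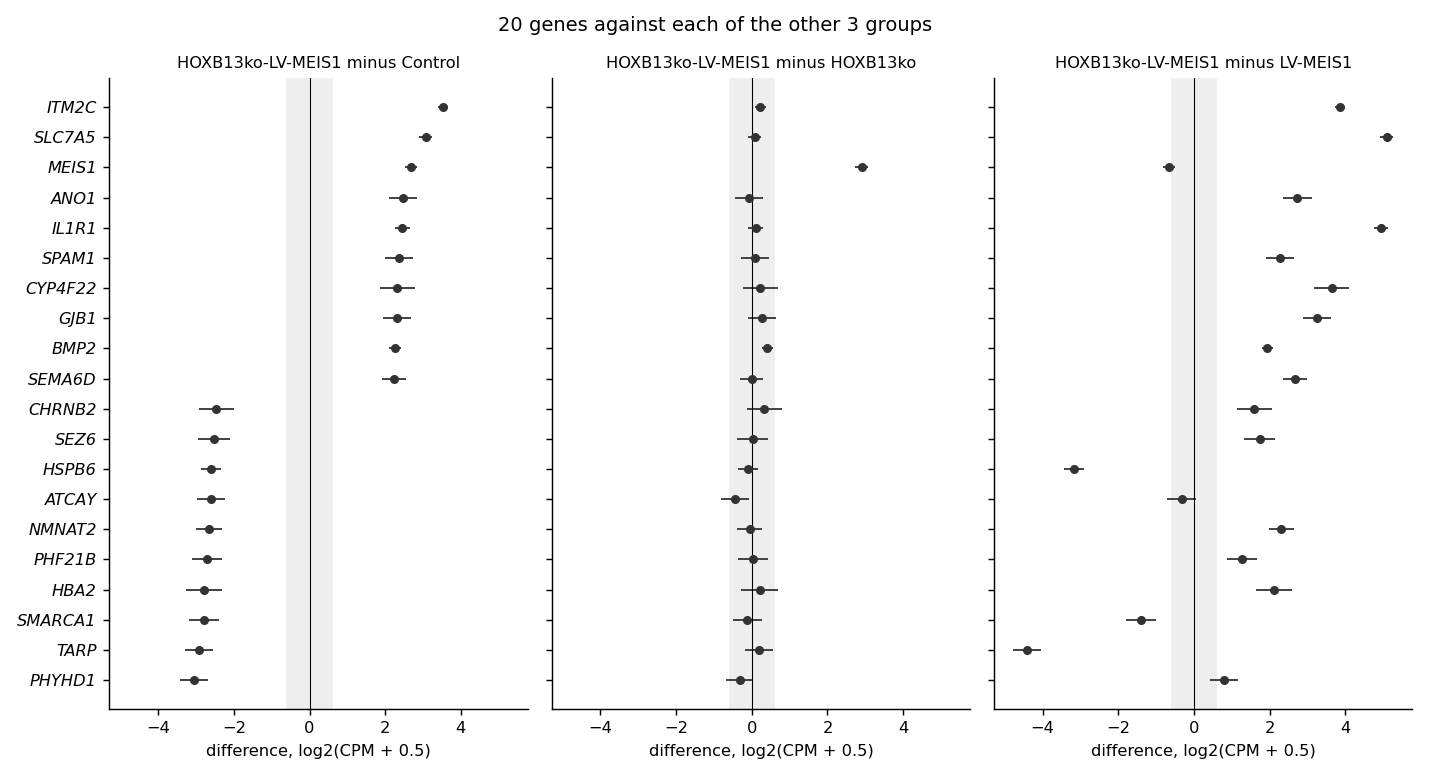
Points are the difference of HOXB13ko-LV-MEIS1 from Control, HOXB13ko and LV-MEIS1 on the log2(CPM + 0.5) scale, with 95% intervals, for the 10 highest and 10 lowest genes against Control, and the grey band spans 1.5-fold either way. Against HOXB13ko all genes but MEIS1 have their point within the band, whereas against LV-MEIS1 all but ATCAY lie outside it.

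Base composition moved with the groups. When genes averaging 5 CPM or more were split into 5 equal parts by the GC content of their transcripts, the median log2 difference of HOXB13ko-LV-MEIS1 from Control was 0.16, 0.10, 0.016, -0.086 and -0.22 from the lowest to the highest GC, and in the highest part 5 genes were called higher and 30 lower. The libraries of a group were not alike in this. In the highest part, Control libraries lay 0.029, 0.22 and 0.087 above the mean of the 6 libraries, and HOXB13ko-LV-MEIS1 libraries deviated by -0.16, -0.10 and -0.065. With each library's trend with GC removed, an alternative chosen after seeing the data, 213 genes were called, 112 higher and 101 lower, of which 91 and 89 were among the 101 and 119. Without Control replicate 2, 184 genes were called. Medians of some lists shifted as well. The median of axon guidance genes went from -0.19 to -0.011, that of neuroendocrine genes from -0.20 to -0.0033 and that of collagens, laminins and fibronectin from -0.37 to -0.15. The medians of the ATF4 list and of the androgen-responsive genes moved away from 0, the latter from 0.073 to 0.16.

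**Figure D5:**
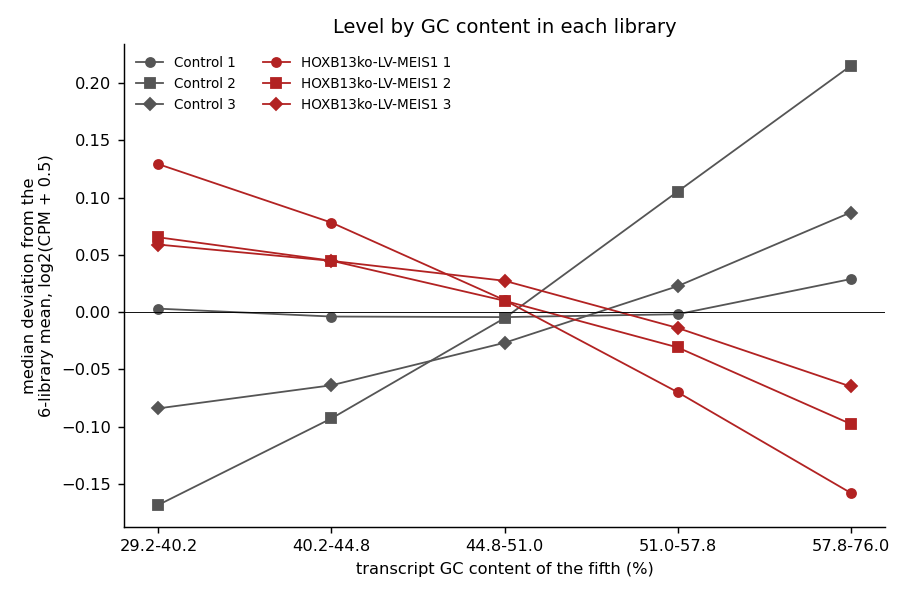
Lines are the 6 libraries compared, and points are the median deviation from the 6-library mean on the log2(CPM + 0.5) scale in each of 5 equal parts of the genes by transcript GC content. Control replicate 2 rises most steeply, to 0.22 in the highest part, and HOXB13ko-LV-MEIS1 replicate 1 falls most, to -0.16.

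Along the chromosomes, medians over 15 adjacent genes, each averaging 5 CPM or more, were taken in 11106 overlapping windows and lay between -0.54 and 0.53. The highest windows lay in the clustered protocadherins on chromosome 5 (GRCh38, 140786136 to 141512977), cell adhesion genes with alternative promoters best known from neurons. Over all 52 of these genes listed, 40 were higher and 12 lower (of all genes 6680 and 7271), 5 were called higher (PCDHA10, PCDHGA9, PCDHB5, PCDHB8 and PCDHB10) beside 0.724% of all genes, and the median was 0.30, or 0.35 with the GC trend removed. PCDHA10 was 14.2, 15.1 and 13.1 CPM in Control and 39.2, 38.1 and 38.4 CPM in HOXB13ko-LV-MEIS1 (1.42 ± 0.08, adjusted p = 1.14e-05, limma treat). It was 42.6 ± 5.25 CPM in HOXB13ko and 31.4 ± 1.00 CPM in LV-MEIS1, above Control in both. Transcripts of the alpha and gamma clusters share their last exons, so that reads there could have been divided among members. The lowest windows lay at the distal end of the long arm of chromosome 8, where 58 of 60 genes were lower (of all genes 7271 of 13951) and the median was -0.39. The transcripts of those genes had a median GC content of 64.1%, and the median was -0.13 with the GC trend removed. Median differences of HOXB13ko and LV-MEIS1 from Control were 0.45 and 0.28 over the protocadherins. Over the distal chromosome 8 genes they were -0.33 and -0.23. Neither shift was thus particular to HOXB13ko-LV-MEIS1. Both stretches were picked after their values were seen and are described without a test.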

How the data were processed

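RNA-seq libraries of 4 groups of CWR22Rv1 cells (3 each, by their titles) were analysed, with groups taken from the labels. Per the study's methods and the processing notes, the authors prepared stranded poly(A) libraries, sequenced single-end reads of 50 bp, trimmed them with Trimmomatic 0.38, assigned them to Ensembl GRCh38 cDNA and ncRNA with kallisto 0.43.1, imported gene sums with tximport, filtered out low counts and normalised with edgeR 3.22.2. The deposited values are CPM per gene symbol, 13993 rows, of which 42 exact repeats were dropped. Because each read is split by estimation among transcripts and the whole listing is filtered, a low gene, an overlapping gene or a near-identical copy has an uncertain value, and a gene that is not listed was not analysed here. Overlaps on the opposite strand are given for some named genes only. The sources used here give no depth. The spacing of low CPM values put it at 17150000 to 28650000 reads per library (3 reads are 0.105 to 0.175 CPM), but 40.4% to 54.6% of values under 1 CPM lay within 0.05 reads of a whole read, so whole reads could not be recovered and count models were not used.

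Models were fitted to log2(CPM + 0.5) with limma 3.58.1 under R 4.3.3, giving each group a mean, over all 12 libraries, with a trended prior, and genes were called by treat against a 1.5-fold change at a Benjamini-Hochberg adjusted p under 0.05 over all 13951 genes, the fold threshold and adjusted p of the study's test. Every adjusted p without another name is from that test. Fold changes on this scale understate low genes. On simulated data for HOXB13ko-LV-MEIS1 against Control, with 13951 genes, 98% of 4-fold and 69% of 2-fold changes and 1 of 13751 unchanged genes were called. The changed genes were drawn from those averaging 1 CPM or more, and the noise was normal and independent between genes. The shares of changes called thus do not cover lower genes. None of these rates covers trends within a library, such as that with GC content. The rule for named genes took a panel from the study (HOXB13, MEIS1, DCN, LUM, TGFBR3, ITGB1); the 10 highest and 10 lowest called genes averaging 1 CPM or more without overlap; the 5 largest rises and 5 largest falls in CPM; up to 4 called members of each of 22 lists, or the 2 most abundant where none was called; called genes against HOXB13ko; and 3 each way against LV-MEIS1. Members beyond this rule were named after their values were seen (SYP, SRRM4, SOX2, SYT4, UNC5C, CHAC1, GDF15, KLK3, TMPRSS2, TTK, ECT2, LPAR4, PCDHA10 and its neighbours). The comparison, members and lists were chosen with earlier results of these data known. Positions and GC content came from GENCODE v44 for 13665 genes (97.95%), 458 by an older symbol. Alternatives were other pseudocounts (0.1 and 1), a minimum of 1 CPM, 3 other scalings, a replicate block, other tests, a fit of 6 libraries, removal of the GC trend and leaving out each library. Figures used matplotlib 3.10.9 (Python 3.11.15).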

Additional observations from a re-analysis of the deposited data

How the results depend on the processing

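Each culture line was sampled 3 times, depth was estimated and not given, and genes near 0.1 CPM could not be told from 0. The count of 220 genes against Control stayed between 163 and 254 in every setting that kept the fold threshold inside the test. Limma's eBayes test against no change gave 5182 genes (2548 higher, 2634 lower), and eBayes with a 1.5-fold limit applied afterwards gave 1047 (392 and 655). Against LV-MEIS1 these 2 settings gave 6993 (3352 and 3641) and 2239 (962 and 1277) in place of 936. Against HOXB13ko they gave 7 and 5 genes in place of 1, and pseudocount 0.1, the replicate block and the fit of only the 6 libraries compared gave 2 each, MEIS1 and C1QTNF3-AMACR. Leaving out 1 library gave 178 to 218 genes against Control (77 to 98 higher, 96 to 122 lower), 1 to 2 against HOXB13ko and 837 to 954 against LV-MEIS1 (416 to 468 and 411 to 486). MEIS1 stayed called in all of them, at 2.64 to 2.70.

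HOXB13 kept its direction, but its call was lost with quantile scaling (0.79), with the replicate block (0.86), with only the 6 libraries compared (0.86), at an adjusted p under 0.01 (0.86), and without Control replicate 1 or 3, HOXB13ko replicate 2, HOXB13ko-LV-MEIS1 replicate 2 or 3, or any LV-MEIS1 replicate (0.81 to 0.93 over all 12 such fits). The replicate block and the fit of 6 libraries also ended the calls of OCRL (adjusted p = 0.0503 and 0.0729), GPC3 (0.0673 and 0.109), OVOL1 (0.0558 and 0.0811) and MEIS3 (0.0930 and 0.11). Pseudocount 1 ended those of GPC3 (0.0816), OVOL1 (0.0681), MEIS3 (0.285) and SPOCK2 (0.0528), and quantile scaling those of MEIS3 (0.112), SPOCK2 (0.0626) and OVOL1 (0.0934). OCRL, SPOCK2, GPC3 and OVOL1 lost calls without Control replicate 1, and also without HOXB13ko-LV-MEIS1 replicate 1. Signs turned for genes near 0 that were not called: TRIB3 at equal sum (-0.017) and under quantile scaling (-0.060), and SHMT2 (0.016), GPER1 (0.012) and TUBB4B (0.17) with the GC trend removed. Over the fits without 1 library, TRIB3 ranged from -0.066 to 0.077, MCM4 from -0.069 to 0.021 and TUBB4B from -0.074 to 0.036. The cause was not tested. Same-numbered libraries of HOXB13ko-LV-MEIS1 and Control deviated from their group means with correlations of 0.11, -0.15 and -0.14. Differently numbered ones ran from -0.11 to 0.22. Deviations within a group sum to 0, so these few values cannot show whether the numbers mark a pairing. The replicate block gave 195 genes, 87 higher and 108 lower.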
